A study of Mus musculus with 8 samples.

Results

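The 6 genes described here encode factors that drive the elongation step of protein synthesis, or an enzyme that controls it, and they were taken by symbol from a table of 49997 genes counted by RNA-seq in EO771, a cell line of mouse breast cancer. They are Eef1a1, Eef1b2, Eef1d, Eef1g, Eef2 and Eef2k, and 4 of the 6 reached the mean count of 10 over all libraries that a gene needed to be tested. The 8 libraries formed 4 groups of 2. In the 12-HETE experiment, cells were kept with the DMSO vehicle or with 12-HETE at 100 nM, a lipid that 12-lipoxygenase makes from arachidonic acid, for 48 h. In the ADAR1 p150 experiment, cells were transduced with an empty vector or with a vector that overexpresses ADAR1 p150, the interferon-inducible form of an enzyme that edits adenosine to inosine in RNA. The vector's promoter was not given in the sources used here, and the labels do not say what separates the libraries of a group, which the study's legend counts as independent experiments, so p-values measure the spread between these libraries.

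During elongation, eEF1A carries each aminoacyl-tRNA to the ribosome as a complex with GTP. The eEF1B subunits encoded by Eef1b2, Eef1d and Eef1g form the exchange factor that reloads eEF1A with GTP. eEF2 then moves the ribosome along the mRNA by a codon. eEF2 kinase, encoded by Eef2k and switched on by calcium and calmodulin, phosphorylates eEF2 and slows this movement. The mRNAs of most elongation factors belong to the class that begins with a run of pyrimidines and whose translation depends on mTOR signalling.

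In the GENCODE M21 annotation of GRCm38, Eef1a1 lay on the minus strand of chr9:78478449-78489151 and Eef2 on the plus strand of chr10:81176631-81182498. Eef1b2 (chr1:63176825-63180486) and Eef1g (chr19:8967041-8978479) lay on the plus strand, Eef1d (chr15:75894205-75909556) on the minus strand and Eef2k (chr7:120842831-120907450) on the plus strand. All were annotated as protein-coding. RefSeq promoter windows of GRCm38.p6, each 300 bases long with 250 before and 50 after an annotated start, were given for 4 of the 6 genes. The letters TATAA were looked for on both strands, with no other motif, and 24.9% of the 32851 windows of the table held them. They were found once each in the windows of Eef1a1 and Eef2, the most abundant members, whose matches are shown 5′ to 3′ on the gene's strand with TATAA in capitals.
Eef1a1, chr9:78481687-78481706, minus strand: aacggtaTATAAgtgcggca
Eef2, chr10:81176609-81176628, plus strand: gtcgaccTATAAaaggccgg
The match lay 25 bases after the annotated start for Eef1a1 and 15 bases before it for Eef2. The Eef1b2 window and the windows of the 3 annotated Eef2k starts held no such letters. These matches are a description of the sequence and were not tied to any count.

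Library totals ran from 1101767 to 1537037 counts, and the abundant RNA gene AY036118 alone took 44.4% to 50.3% of them. Both treated groups had deeper libraries than their controls. A floor of 3 counts equalled 2.05 to 2.65 normalized CPM (counts scaled to the library's total and TMM factor), which set the lowest level that could be told from none, for counting error only. The targeted gene Adar had 2 and 8 counts in the vector libraries and 181 and 140 in the ADAR1 p150 libraries, a log2 fold change of 4.68 ± 0.32 (SE; edgeR quasi-likelihood test, adjusted p = 6.40e-14). Of the mammary epithelial markers, Krt8, Krt18 and Krt19 had at least 42 counts in every library, Epcam had 1 to 4 and Cdh1 had 0. Krt18 fell with 12-HETE (−0.61, edgeR adjusted p = 0.0121) and with ADAR1 p150 (−0.88, edgeR adjusted p = 0.00198). Krt8 (0.11) and Krt19 (−0.50) were not called with 12-HETE (edgeR adjusted p = 0.690 and 0.114). Krt8 (0.59) and Krt19 (0.60) rose with ADAR1 p150 (edgeR adjusted p = 0.0314 and 0.0465). Of the mesenchymal markers, Vim had 28 to 65 counts in a library, Acta2 5 to 12 and Col1a1 0 to 3. Vim was not called with 12-HETE (0.50, edgeR adjusted p = 0.128) or ADAR1 p150 (0.44, edgeR adjusted p = 0.226). The part of these markers in the results was not tested. Leukocyte and adipocyte markers summed to at most 2 counts in any library.

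Eef1a1 and Eef2 supplied most of the counts of this gene group, between 79.5% and 87.0% of the 6-gene sum in each library. Levels of different genes were compared as normalized CPM per kb of exon. The strand setting of the counting was not given, and whether these levels follow those of the mRNAs was not tested. In vehicle cells this level was 97.7 ± 25.6 for Eef1a1 and 88.3 ± 5.16 for Eef2 (SD, n = 2), and these neighbours did not differ beyond their spread. With the longest transcript as length the groups parted, at 111 and 161 for Eef1a1 and 91.1 and 98.9 for Eef2. Below them stood Eef1b2 at 22.9 ± 2.69 and Eef1g at 7.20 ± 2.06 per kb, and each step down was larger than the spread of the pair. Eef2k, the kinase gene, was far lower at 0.609 ± 0.247 per kb. Eef1d, the third exchange factor subunit, had 1 count in vehicle replicate 4 and 0 counts in the other 7 libraries, so its level was at or under the floor in every group. In 12-HETE cells the order of the leading pair was Eef1a1 at 89.8 ± 9.91 over Eef2 at 50.9 ± 7.80 per kb, with no overlap.

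**Figure D1:**
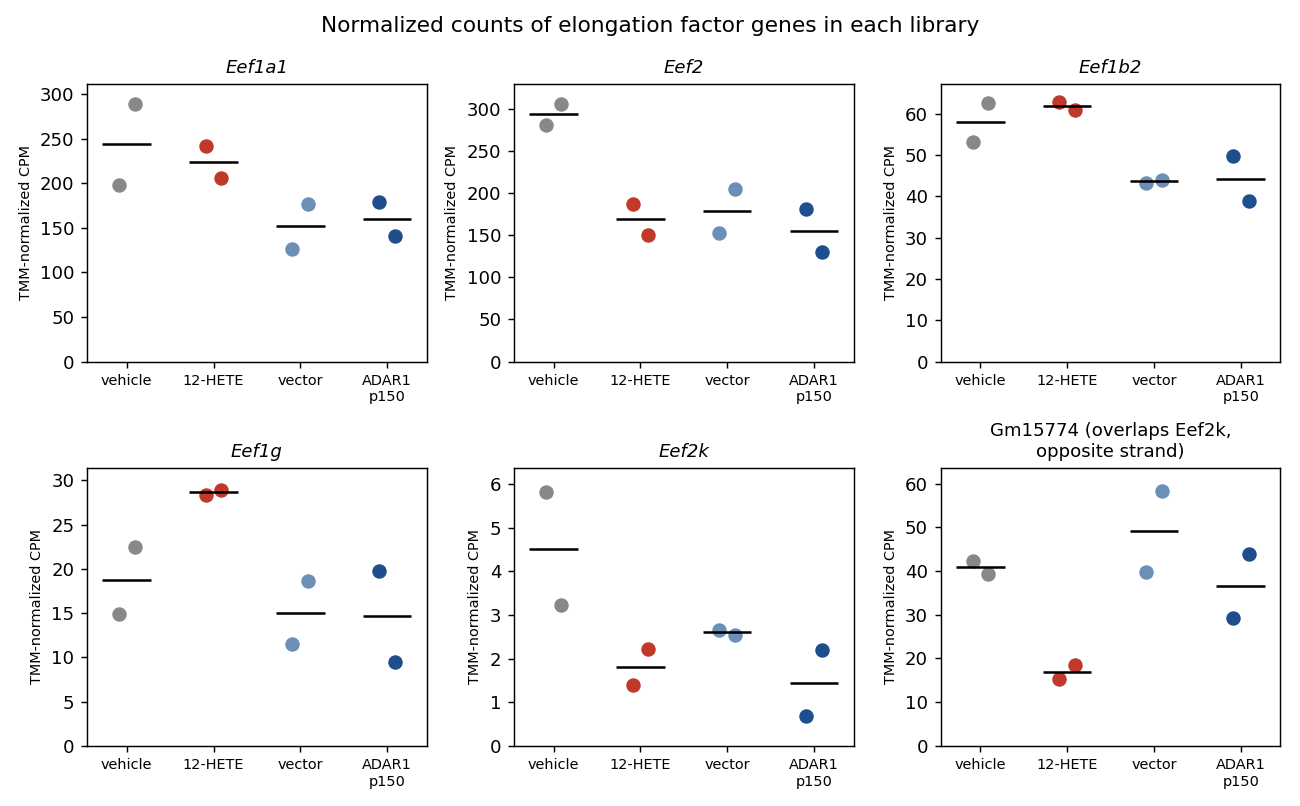
Each point is a library's TMM-normalized CPM (vertical axes, starting at 0) for 5 member genes and for Gm15774, the gene opposite Eef2k, in the 4 groups, and horizontal bars are means of 2 libraries. Both vehicle points of Eef2, at 281 and 306, lie above the other 6 points, which run from 130 to 205, whereas Eef2k stays at the level of 1 to 7 counts.

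12-HETE was first compared with vehicle. Eef2 fell, Eef1a1 and Eef1b2 did not pass the test in either direction, and Eef1g was higher in both treated libraries without passing it. Eef2, the translocation factor, had 339 and 380 counts in the vehicle libraries and 271 and 203 in the deeper 12-HETE libraries, or 281 and 306 against 187 and 151 normalized CPM. Both treated values lay below both vehicle values. The log2 fold change was −0.79 ± 0.14 (SE, 95% interval −1.08 to −0.51), a level 1.73-fold lower, with an adjusted p of 3.02e-05 in edgeR's quasi-likelihood test.
This was 1 of 4 tested members called at an adjusted p under 0.05, against 29.3% of all 6901 tested genes called in this comparison and 14.2% called lower. Both 12-HETE libraries lay below both vehicle libraries for 31.2% of all tested genes. The drop was under the 2-fold size that the study's own criterion asked for, so with that criterion, which 14.4% of tested genes met, no member was called. When every library was thinned to the smallest total, the change was −0.84. In bulk RNA, fewer cells of a type and less RNA per cell cannot be told apart.

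Eef1a1, the tRNA carrier, was at 198 and 289 normalized CPM in vehicle and at 241 and 206 in 12-HETE, with overlapping groups. Its log2 fold change was −0.12 ± 0.15 (95% interval −0.42 to 0.18; edgeR adjusted p = 0.582). Eef1b2, a subunit gene of the exchange factor, was at 53.1 and 62.7 in vehicle and 62.9 and 60.9 in 12-HETE. Its log2 fold change was 0.09 ± 0.19 (95% interval −0.29 to 0.48, edgeR adjusted p = 0.758). The groups overlapped here too. Eef1g, the scaffold subunit of the exchange factor, had 18 and 28 counts in vehicle and 41 and 39 in 12-HETE, or 14.9 and 22.5 against 28.3 and 29.0 normalized CPM. Both treated values were above both vehicle values, but the log2 fold change of 0.61 ± 0.32 (95% interval −0.05 to 1.26) had an edgeR adjusted p of 0.159. Without vehicle replicate 4 the Eef1g change was 0.34, and without vehicle replicate 5 it was 0.86. The median log2 fold change of the 4 tested members was −0.01, beside 0.00 over all tested genes.

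Since Eef2 was lower and Eef1a1 was not, their relation within a library was examined. The per-kb level of Eef2 relative to Eef1a1 was 1.06 and 0.794 in vehicle, and 0.582 and 0.548 in 12-HETE, with no overlap. It was 0.902 and 0.868 in the vector libraries and 0.759 and 0.691 in the ADAR1 p150 libraries, again lower in both treated libraries. The ratio needs no scaling between libraries and is given as a description with no test. The endothelial markers Pecam1 and Cdh5 summed to 7 and 10 counts in vehicle and to 0 and 2 in 12-HETE, 5 and 8 in vector and 1 and 8 in ADAR1 p150, with Cdh5 or Pecam1 at 0 in some libraries, and their part in these differences was not tested.

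ADAR1 p150 was then compared with vector. None of the 4 tested members rose or fell by edgeR's quasi-likelihood test, none had an unadjusted p under 0.05, and DESeq2 also called none. The same edgeR test called 25.6% of all tested genes in this comparison, with 11.1% of tested genes lower, and 36.6% had an unadjusted p under 0.05. Eef1a1 was at 127 and 177 normalized CPM in vector and 179 and 141 in ADAR1 p150, a log2 fold change of 0.07 ± 0.16 (95% interval −0.25 to 0.40; edgeR adjusted p = 0.797). Eef2 was at 152 and 205 in vector and 181 and 130 in ADAR1 p150, a change of −0.20 ± 0.15 (95% interval −0.50 to 0.10; edgeR adjusted p = 0.354). The groups overlapped for both genes.
Eef1b2 was at 43.4 and 44.0 in vector and 49.8 and 38.8 in ADAR1 p150, with a log2 fold change of 0.02 (95% interval −0.41 to 0.45). Eef1g was at 11.5 and 18.6 in vector and 19.8 and 9.53 in ADAR1 p150, with a change of −0.03 (95% interval −0.80 to 0.73). The spread of the ADAR1 p150 pair covered the vector pair for both exchange factor subunits, and the signs of Eef1a1, Eef1b2 and Eef1g turned with the scaling, minimum or libraries used. That of Eef2 turned without vector replicate 2 or without ADAR1 p150 replicate 2 (0.027 each).

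**Figure D2:**
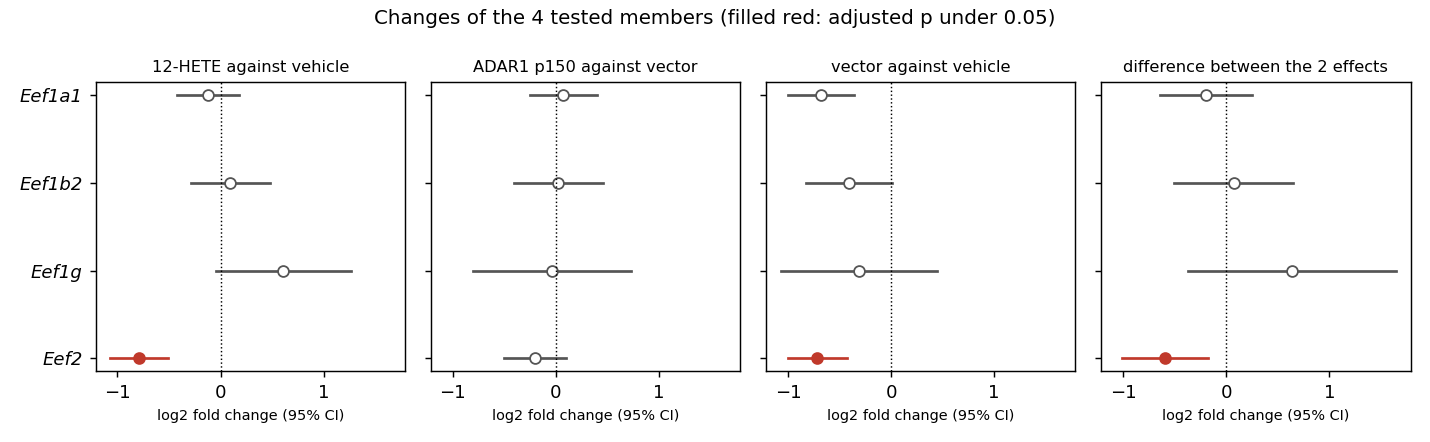
Points are edgeR log2 fold changes and bars 95% intervals (horizontal axes) of Eef1a1, Eef1b2, Eef1g and Eef2 in the 4 comparisons, with filled red points at an adjusted p under 0.05. Eef2 is the only member called, at −0.79 for 12-HETE, −0.71 for vector against vehicle and −0.59 for the difference between the effects of the treatments, while all 4 intervals for ADAR1 p150 cross 0.

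The control groups of the experiments were set against each other to see how far the baseline of these genes differed. All 4 tested members had a lower fitted level in vector than in vehicle cells, as 51.0% of all tested genes had, and only Eef2 passed the test. Eef2 was at 281 and 306 normalized CPM in vehicle and at 152 and 205 in vector, a log2 fold change of −0.71 ± 0.14 (SE, 95% interval −1.0 to −0.43) or 1.64-fold lower, with an edgeR adjusted p of 0.0366. It was 1 of only 8 genes called here, 0.116% of those tested, and 7 genes (0.101%) were lower. Both vehicle libraries were above the other 6 for Eef2, as for 6.94% of tested genes, a count chosen after the values were seen.
The call did not hold in every setting. It was lost with DESeq2 (−0.66, adjusted p = 0.995), with the replicate number as a block (adjusted p = 0.0686) and with the 2-fold criterion, met by 0.0435% of tested genes. It was also lost without vehicle replicate 5 (−0.63, edgeR adjusted p = 0.303) or without vector replicate 1 (−0.52, edgeR adjusted p = 0.625).

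Eef1a1 came close to the same call. It was at 198 and 289 normalized CPM in vehicle and at 127 and 177 in vector, with no overlap, and its log2 fold change was −0.68 ± 0.16 (95% interval −1.0 to −0.36; edgeR adjusted p = 0.0612). It passed the test when AY036118, Rn7s1 and Rn7s2 were left out of the scaling (edgeR adjusted p = 0.0418), without vehicle replicate 4 (−0.92, edgeR adjusted p = 0.00334) or without vector replicate 2 (−0.94, edgeR adjusted p = 0.00503). Without vehicle replicate 5 the Eef1a1 change was −0.36, and without vector replicate 1 it was −0.46. Eef1b2 had a change of −0.41 ± 0.21 (edgeR adjusted p = 0.456) and Eef1g one of −0.31 ± 0.37 (edgeR adjusted p = 0.782).
The median over the 4 members was −0.54, beside −0.01 over all tested genes. For Eef1a1 and Eef1b2, all 4 libraries of the 12-HETE experiment lay above all 4 of the ADAR1 p150 experiment, as they did for 4.87% of tested genes, a pattern also chosen after the values were seen. Vehicle exposure, transduction and any difference in culture or library preparation between the experiments cannot be told apart.

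The effects of the treatments were compared by an interaction, the change with 12-HETE minus the change with ADAR1 p150. For Eef2 this was −0.59 ± 0.20 (SE, 95% interval −1.01 to −0.18; edgeR adjusted p = 0.0439), a larger drop with 12-HETE. It was 1 of 4 members called, where 15% of all tested genes were called and 8.29% were called lower. The vehicle libraries that set the Eef2 change with 12-HETE also enter this interaction and the comparison of controls, so the Eef2 values are not independent of each other. Eef1a1 (−0.19, 95% interval −0.64 to 0.25), Eef1b2 (0.07, −0.51 to 0.65) and Eef1g (0.64, −0.37 to 1.65) were not called.
The Eef2 call lay close to the threshold. It was lost with DESeq2 (adjusted p = 0.197), with DESeq2's size factors in edgeR (0.0573), after thinning (0.0557), with no count minimum (0.149), with the replicate block (0.0747) and with the 2-fold criterion, met by 8.33% of tested genes. It was lost too without vehicle replicate 4 (−0.65, edgeR adjusted p = 0.0541), vehicle replicate 5 (−0.54, 0.116), 12-HETE replicate 5 (−0.44, 0.236), vector replicate 1 (−0.39, 0.261) or ADAR1 p150 replicate 1 (−0.34, 0.325).

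**Figure D3:**
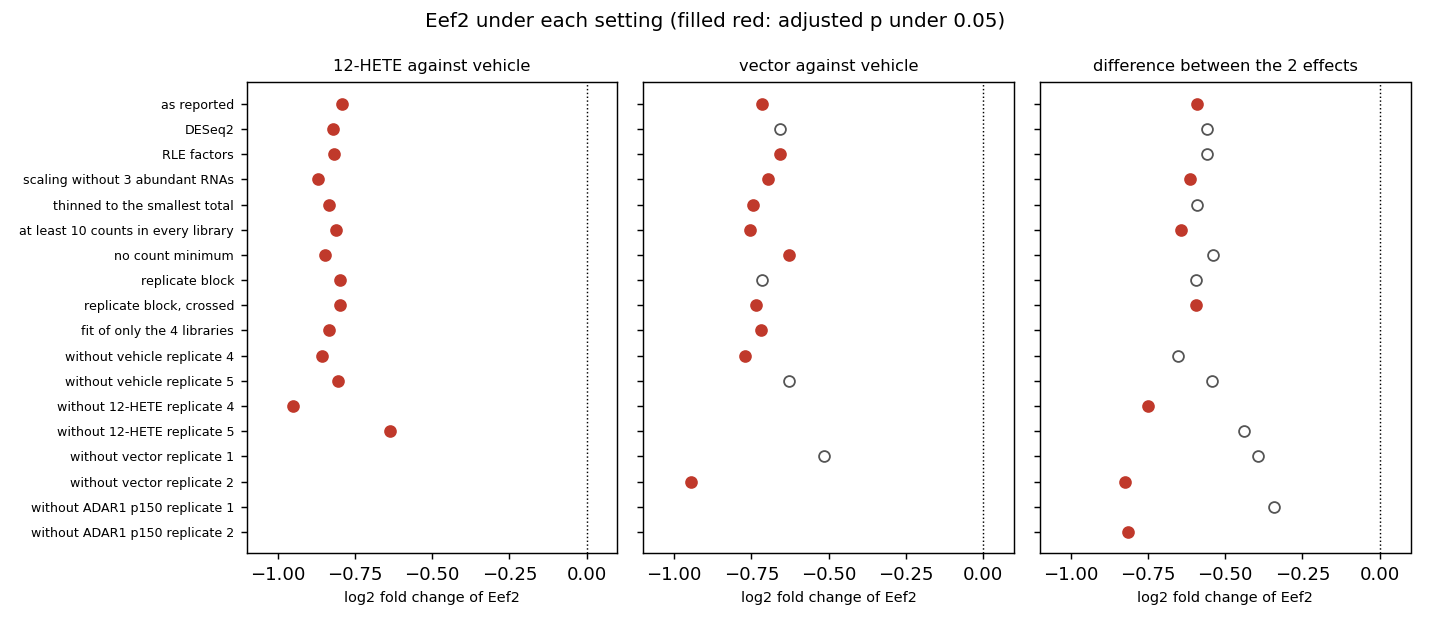
Each point is the log2 fold change of Eef2 (horizontal axes) under a setting named at the left, for 3 comparisons, filled red where the adjusted p was under 0.05. The 12-HETE change runs from −0.95 to −0.64 and is filled throughout, whereas the other panels hold open points in several settings.

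Eef2k, the gene of the kinase that acts on eEF2, was at the limit of detection. It had 7 and 4 counts in vehicle, 2 and 3 in 12-HETE, 3 and 3 in vector and 1 and 3 in ADAR1 p150. Scaled for library size, its summed counts in 12-HETE were 0.398 of those in vehicle, with a 95% interval of 0.109 to 1.24 that covers counting error only. The ratio was 0.544 (0.113 to 2.29) for ADAR1 p150 against vector and 0.578 (0.176 to 1.70) for vector against vehicle. Each interval held a ratio of 1, so no difference of Eef2k was detectable at this depth. Fitted with no count minimum, its log2 fold change was −1.33 ± 0.76 with 12-HETE (edgeR adjusted p = 0.401) and −0.94 ± 0.92 with ADAR1 p150 (edgeR adjusted p = 0.825). Between vector and vehicle it was −0.68 ± 0.74 (edgeR adjusted p = 0.942).
Gm15774, an antisense gene at chr7:120865509-120875298 on the minus strand, lies within Eef2k and shares 101 exonic bases with it. It had 364 counts over all libraries against 26 for Eef2k. The strand setting of the counting was not given in the sources used here, so reads from these genes may not be told apart. Elsewhere, antisense genes also had more counts than Hbs1l (2935 against 72), Rps6ka1 (433 against 11) and Gspt1 (5963 against 469). The antisense gene opposite Eef2kmt had fewer (4 against 1661). Whether reads were counted on the strand opposite to the mRNA, for this locus or the whole table, was not tested. Gm15774 had 51 and 49 counts in vehicle and 22 and 25 in 12-HETE, with no overlap, and fell by 1.27 on the log2 scale (SE 0.28, edgeR adjusted p = 0.000532), a level 2.42-fold lower. With ADAR1 p150 its change was −0.43 (edgeR adjusted p = 0.183), and the difference between the effects was −0.84 (edgeR adjusted p = 0.124). The ADAR1 p150 change was −0.13 without vector replicate 2, −0.15 without ADAR1 p150 replicate 1, −0.69 without vector replicate 1 and −0.73 without ADAR1 p150 replicate 2. The difference passed the test without ADAR1 p150 replicate 1 (−1.12, edgeR adjusted p = 0.0453) and was −0.53 without ADAR1 p150 replicate 2.

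For the other members, only genes on the opposite strand and pseudogenes named after a member were looked up. Other sources of misplaced or lost reads were not examined. No gene of the table lay opposite Eef1a1, Eef1d, Eef1g or Eef2, and Ndufs1, the gene opposite Eef1b2, shared only 9 exonic bases with it. Eef1a1 has processed pseudogenes of near-identical sequence. Eef1a1-ps1 had 9 to 21 counts, equal to 4.18% to 8.85% of the Eef1a1 count in the same library, and was not called in any comparison. Eef1a1-ps2 had 0 counts, and Eef2-ps2 had 0 to 3 in any library, against at least 172 for Eef2.

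The genes that tracked each member most closely over the 8 libraries were listed by Pearson's r of log2 normalized CPM, among the 2218 genes whose mean count reached 50. Eef1a1 was most like Rpl27, a ribosomal protein gene (r = 0.981), then Fam120a (0.953) and Lasp1 (0.948). Eef1b2 was most like Itga3 (0.983), Tubb5 (0.979) and Hdlbp (0.974). Eef2 was most like Myof (0.958), Tpt1 (0.940) and Rpsa (0.932). Tpt1 and Rpsa encode a translationally controlled protein and a ribosomal protein. Eef1g was under that mean. Between members, r ran from 0.296 for Eef1g with Eef2 to 0.895 for Eef1a1 with Eef1b2, over points that share libraries, depth and the split between experiments.

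A list of 48 symbols of related genes, which held older and newer symbols of some genes, had 44 entries in the table and 19 that could be tested. With 12-HETE, 4 of the 19 rose and 2 fell, where 15.1% of all tested genes rose and 14.2% fell. With ADAR1 p150, 2 rose and 1 fell, where 14.5% rose and 11.1% fell. Between vector and vehicle, edgeR and DESeq2 called 0 of the 19, and 5 had an unadjusted edgeR p under 0.05, as 11.5% of all tested genes did. The median log2 fold change of the 19 was 0.27 with 12-HETE and −0.04 with ADAR1 p150, against 0.00 and 0.07 over all genes.

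Among enzymes that modify the factors, both tested methyltransferase genes rose with 12-HETE, where 15.1% of all tested genes rose. Eef2kmt, whose product methylates a lysine of eEF2, had 197 and 151 counts in vehicle and 284 and 293 in 12-HETE, or 163 and 121 against 196 and 218 normalized CPM. Its log2 fold change was 0.54 ± 0.13 (SE, edgeR adjusted p = 0.00226). With ADAR1 p150 it was −0.11, and the difference between the effects was 0.65 ± 0.20 (edgeR adjusted p = 0.0188). This difference was lost with DESeq2 (adjusted p = 0.0908) and without vehicle replicate 5 (0.44), 12-HETE replicate 5 (0.59), vector replicate 1 (0.58) or ADAR1 p150 replicate 2 (0.56).
Without vehicle replicate 5 the Eef2kmt rise was 0.27 (edgeR adjusted p = 0.294), and DESeq2 gave an adjusted p of 0.0516. Eef2kmt shares 472 exonic bases with the opposite gene Alg1, which had 444 counts in all against 1661 and was not called. Eef1akmt3, which methylates eEF1A, was at 54.8 and 46.6 normalized CPM in vehicle and 70.5 and 74.2 in 12-HETE, a log2 fold change of 0.51 ± 0.19 (edgeR adjusted p = 0.0416). The Eef1akmt3 call was lost in 10 of 13 alternatives, including the removal of any library of the pair of groups, with changes of 0.33 without vehicle replicate 5 and 0.63 without vehicle replicate 4. Its exons share 100 bases with the opposite gene Mettl1. The Eef1akmt3 difference between the effects was 0.88 ± 0.29 (edgeR adjusted p = 0.0321), and this call was lost in 9 of 16 alternatives. These were DESeq2 (adjusted p = 0.161), thinning, no count minimum, the replicate block (edgeR adjusted p = 0.0603), and leaving out vehicle replicate 5 (0.76), 12-HETE replicate 4 (0.93), 12-HETE replicate 5 (0.85), vector replicate 1 (0.62) or ADAR1 p150 replicate 1 (0.80).

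Of the 7 tested regulators of eEF2 kinase, 1 was called higher with 12-HETE, where 15.1% of all tested genes were, and none was called with ADAR1 p150, where 25.6% were. Calm2, a calmodulin gene, had 33 and 24 counts in vehicle and 89 and 65 in 12-HETE, a log2 fold change of 1.24 ± 0.24 (edgeR adjusted p = 0.000135). The treated values did not overlap the vehicle values, and the call held in all alternatives run. Calm3 encodes the same protein as Calm2, and its change of 0.78 ± 0.32 with 12-HETE was not called (edgeR adjusted p = 0.0612). With ADAR1 p150 the Calm2 change was 0.41 (edgeR adjusted p = 0.282), and the difference between the effects was not called (0.83, edgeR adjusted p = 0.132).

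Of the 4 tested genes for eEF1A-like GTPases and for ribosome rescue or termination, Pelo rose with both treatments. Pelo, which releases stalled ribosomes, had 8 and 6 counts in vehicle and 40 and 30 in 12-HETE, a log2 fold change of 2.11 ± 0.38 (edgeR adjusted p = 5.27e-05) or 4.32-fold. It had 9 and 8 counts in vector and 24 and 24 in ADAR1 p150, a log2 fold change of 1.19 ± 0.40 (edgeR adjusted p = 0.0233). The latter call was lost with DESeq2 (adjusted p = 0.230), with no count minimum (edgeR adjusted p = 0.117) and without any library of the ADAR1 p150 experiment (1.08 to 1.31, edgeR adjusted p from 0.0510 to 0.151).
Gtpbp2, a GTPase that acts with pelota on stalled ribosomes, had 21 and 20 counts in vehicle and 12 and 8 in 12-HETE, and fell by 1.22 on the log2 scale (SE 0.40, edgeR adjusted p = 0.0188). Its call was lost with DESeq2 (adjusted p = 0.201), after thinning (edgeR adjusted p = 0.0806), without vehicle replicate 4 (edgeR adjusted p = 0.0834) or without 12-HETE replicate 5 (edgeR adjusted p = 0.147). Gspt1, which encodes the termination factor eRF3, rose with ADAR1 p150 from 41 and 42 counts to 80 and 80, a log2 fold change of 0.65 ± 0.21 (edgeR adjusted p = 0.0185). That call was lost in 7 of 13 alternatives, among them the removal of vector replicate 1 (0.66), vector replicate 2 (0.63) or ADAR1 p150 replicate 2 (0.61). The antisense gene 2610020C07Rik shares 239 exonic bases with Gspt1 and had 5963 counts in all against 469.

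In the mitochondrial list, Gfm2, a factor that recycles mitochondrial ribosomes, fell with both treatments. It was at 284 and 263 normalized CPM in vehicle and 178 and 186 in 12-HETE, a log2 fold change of −0.59 ± 0.11 (edgeR adjusted p = 9.18e-05), and this call held in all alternatives run apart from the 2-fold criterion. With ADAR1 p150 it went from 316 and 315 to 266 and 251, a change of −0.29 ± 0.11 (edgeR adjusted p = 0.0446), which was lost in 7 of 13 alternatives, including the removal of any library of that experiment (−0.32 to −0.23). Neither group pair overlapped.

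The remaining lists had no call, and their member with the most counts is given. Eif5a, the factor that relieves ribosomes stalled on difficult peptide bonds, had changes of 0.40 with 12-HETE (edgeR adjusted p = 0.111) and 0.50 with ADAR1 p150 (edgeR adjusted p = 0.0700). It passed the test with 12-HETE after thinning (edgeR adjusted p = 0.0190) and with ADAR1 p150 without ADAR1 p150 replicate 2 (0.71, edgeR adjusted p = 0.0224). Without 12-HETE replicate 4 the first change was 0.22, and without ADAR1 p150 replicate 1 the other was 0.28. Dhps, which starts the hypusine modification of eIF5A, had changes of 0.49 and −0.45, and the difference between them was not called (edgeR adjusted p = 0.0668). The opposite gene Wdr83 shares 128 exonic bases with Dhps and had 935 counts in all against 322. Vars, the valyl-tRNA synthetase that binds the exchange factor, had changes of −0.22 and −0.04.
Dph3, needed for the diphthamide on eEF2, had −0.52 and −1.15 (edgeR adjusted p = 0.473 and 0.0692), and the latter passed the test in 4 of 12 alternatives, among them the removal of vector replicate 1 (−1.67, edgeR adjusted p = 0.0117). Without vector replicate 2 that Dph3 change was −0.33 (edgeR adjusted p = 0.788), and the 12-HETE change was −0.011 without 12-HETE replicate 4 and −1.21 without 12-HETE replicate 5. The muscle and nerve isoform gene Eef1a2 had 0 counts in every library.

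**Figure D4:**
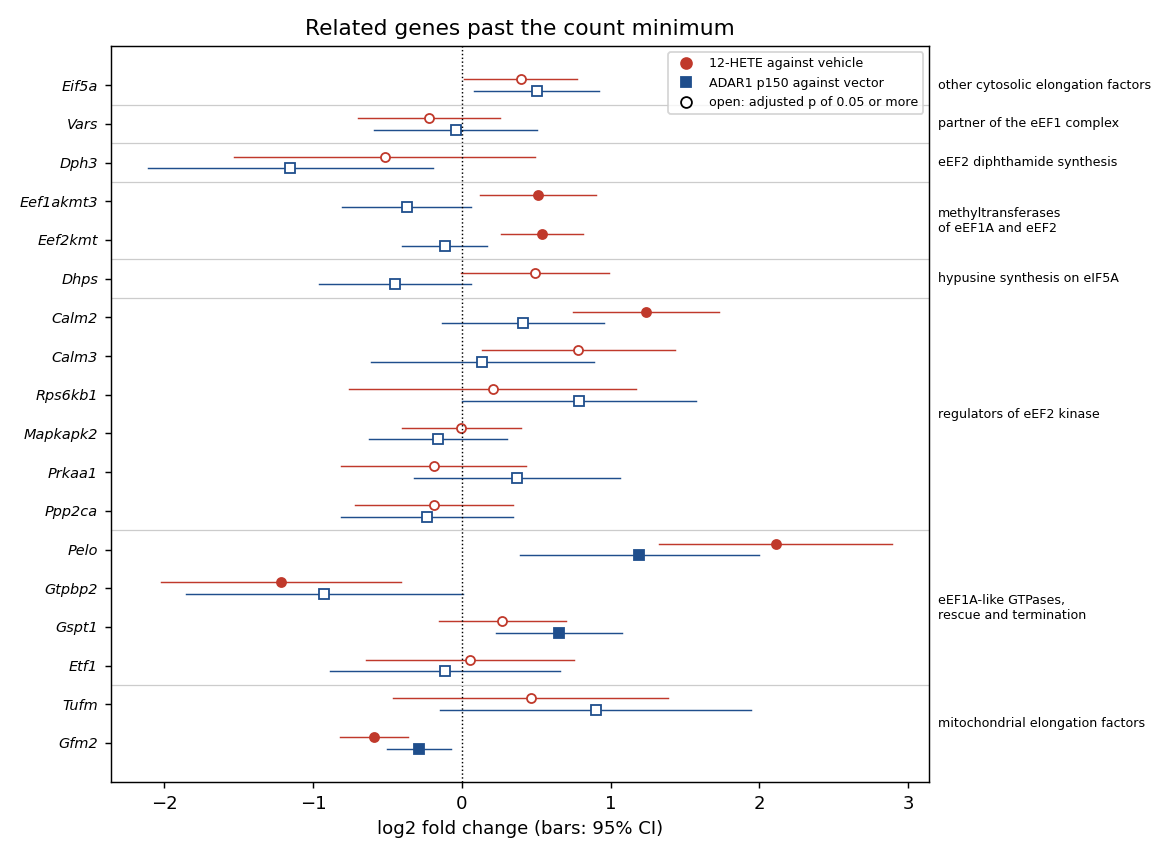
Log2 fold changes (horizontal axis) with 95% intervals of related genes that could be tested (1 of the 19 is not shown), grouped by list, for 12-HETE against vehicle (red circles) and ADAR1 p150 against vector (blue squares), with filled symbols at an adjusted p under 0.05. Pelo is the highest at 2.11 and 1.19, and Gfm2 is filled below 0 for both treatments.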

How the data were processed

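RNA was extracted from EO771 cells and sequenced as paired-end libraries, 2 per group. The kits named for extraction and library preparation differed between the study's methods and its labels. Per the study's methods, the authors used STAR against GRCm38 for alignment and featureCounts for the counts. They removed duplicate reads with prinseq for the editing analysis of these libraries, and whether the deposited counts share that step, which would count repeated reads of abundant mRNAs once, was not given in the sources used here. The deposited values were raw counts per gene, and their strand setting was not given in the sources used here. Counts of all 8 libraries were fitted together with edgeR 4.0.16 (R 4.3.3, quasi-likelihood test, TMM factors, a coefficient per group, mean count of at least 10), with Benjamini-Hochberg adjustment over 6901 genes and calls at an adjusted p under 0.05. Normalized CPM used TMM factors. DESeq2 1.42.0 was an alternative. The fit was tested on simulated data. Totals were 1101767 to 1537037 counts. Replicates differed by more than sampling noise (chi-square per gene 1.39 to 1.71). Named genes were the 6 members, whatever their values, related genes by list (those called, or the one with the most counts), Adar, overlapping genes and pseudogenes, and the 3 genes most correlated with each member. The members and lists were chosen with earlier results of these data known. Each setting named in the closing section was run with the rest kept. Some genes are not reported here.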

Additional observations from a re-analysis of the deposited data

Results flagged for a closer look

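Among the members, the related genes and Adar, 4 genes had an effect of 12-HETE that differed from that of ADAR1 p150. This was by the interaction test of edgeR's quasi-likelihood fit, which called 15% of all tested genes. The log2 difference was −0.59 for Eef2, with the 12-HETE change lower. For Adar it was −4.49, the gene overexpressed in the ADAR1 p150 group. For the methyltransferase genes Eef1akmt3 and Eef2kmt it was 0.88 and 0.65, with the 12-HETE change higher. The call was lost in 10 of 16 alternatives for Eef2, 9 of 16 for Eef1akmt3 and 5 of 16 for Eef2kmt. Groups of 2 libraries were too small for a test of single outlying libraries.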

How the results depend on the processing

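Eef2 was lower with 12-HETE under every alternative, from −0.87 to −0.80, and with a library left out from −0.95 to −0.64. The count of members called with 12-HETE was 1 throughout, except 0 with the 2-fold criterion. With ADAR1 p150 it was 0 throughout. Between vector and vehicle it was 0 with the 2-fold criterion, DESeq2 or the replicate block, 2 without the 3 abundant RNA genes in the scaling, and 0 to 2 with a library left out. For the difference between the effects it was 0 with the 2-fold criterion, DESeq2, DESeq2's size factors in edgeR, thinning, no minimum or the replicate block, and 0 to 1 with a library left out. The cause was not tested. Same-numbered libraries did not deviate together (r = −0.0776 and −0.112), so the replicate block is given only as an alternative, with 1788, 1507, 0 and 859 genes called in the order of the report. A block with crossed numbers in the ADAR1 p150 experiment, added after seeing the data, called 2133, 1858, 62 and 1118 genes and 1, 0, 2 and 1 members. DESeq2 called 1030, 810, 0 and 449 genes. Between vector and vehicle, 232 genes had an unadjusted p under 0.05 with DESeq2 and 795 with edgeR. By adjusted p, edgeR called 8 there, 12 with DESeq2's size factors and 18 without the 3 abundant RNA genes. It called 2 after thinning, 4 with at least 10 counts in every library and 19 with no minimum. With the longest transcript as length, the level per kb over all libraries was 108.5 for Eef1a1, 64.4 for Eef2, 26.8 for Eef1b2 and 10.3 for Eef1g. Changes near 0 turned sign with ADAR1 p150. Eef1a1 was −0.032 with no minimum and −0.00016 in a fit of 4 libraries. Eef1b2 was −0.038 with DESeq2, −0.035 with its size factors in edgeR, −0.031 without the 3 abundant RNA genes, −0.092 after thinning, −0.083 with no minimum and −0.050 in a fit of 4 libraries. Eef1g was 0.013 after thinning and 0.0011 with at least 10 counts in every library. With a library left out, the ranges that crossed 0 were −0.37 to 0.10 (Eef1a1) and −0.023 to 0.15 (Eef1b2) for 12-HETE. For ADAR1 p150 they were −0.15 to 0.33 (Eef1a1), −0.16 to 0.20 (Eef1b2), −0.65 to 0.40 (Eef1g), −0.45 to 0.027 (Eef2) and −0.25 to 0.16 (Vars). Between vector and vehicle they were −0.70 to 0.042 (Eef1g), −1.16 to 0.72 (Adar) and −0.035 to 0.52 (Gm15774), and for the difference −0.46 to 0.092 (Eef1a1) and −0.10 to 0.25 (Eef1b2). A group left with 1 library was assumed to vary like the others. Eef2k, at 1 to 7 counts a library, was fitted only with no count minimum, and Eef1d had too few counts for a value; why Eef1d was so low was not tested.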

Other observations

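Some related genes under the count minimum had values that no comparison of the report used. Eef1aknmt, a methyltransferase of eEF1A, had 3 and 1 counts in vehicle, 14 and 7 in 12-HETE, 1 and 2 in vector and 4 and 2 in ADAR1 p150, so both 12-HETE values were above the other 6. Fitted with no count minimum, its log2 fold change with 12-HETE was 2.08 ± 0.69 (SE, edgeR quasi-likelihood test, adjusted p = 0.0351), on few counts. Eef1e1, a scaffold protein of the aminoacyl-tRNA synthetase complex, had 7 to 12 counts in the 4 libraries of the 12-HETE experiment and 2 to 4 in those of the ADAR1 p150 experiment. With no count minimum its change between vector and vehicle was −1.22 (edgeR adjusted p = 0.886). These genes were chosen after their values were seen, and how many genes under the minimum had such orders was not counted. Among tested genes, 4.87% had all libraries of the 12-HETE experiment above those of the ADAR1 p150 experiment, the order of Eef1e1.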
